A study of Mus musculus with 8 samples.

Results

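The enzymes of the methionine cycle and the reactions that branch from it were examined in AML12 cells with and without the VWA8 gene. The set was chosen by name, with earlier results of these data known. It held 9 genes: Mat1a, Mat2a, Bhmt, Bhmt2, Gnmt, Ahcy, Cbs, Cth and Shmt1. Of these, 8 were measured among the 22180 genes that had a probe set naming them alone, and Mat2a was not analysed here. Where a gene had several probe sets, the one brightest on average across the 8 arrays was used. AML12 is an established hepatocyte line that was derived from mice carrying a human transforming growth factor alpha transgene. The 4 wild-type cultures were compared with 4 VWA8-null cultures, in which CRISPR/Cas9 had been used to remove the gene, and all 8 were differentiated and hybridised to Affymetrix mouse arrays. Both groups were kept in the same medium, with serum, insulin, transferrin, selenium and the glucocorticoid dexamethasone. The labels do not say how many clones the knockout cultures came from, so effects of a clone and of the deletion cannot be told apart.

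The methionine cycle turns methionine into S-adenosylmethionine, the methyl donor of most cellular methylation reactions, and regenerates methionine from the homocysteine that is left over. Liver is its main site: hepatocytes use MAT1A where most other cells use MAT2A, remove excess S-adenosylmethionine with GNMT, and divert homocysteine to cysteine by transsulfuration, through CBS and CTH. Folate enzymes such as SHMT1 supply the one-carbon units for remethylation.

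All values are log2 signals as deposited, differences are knockout minus wild type, and the threshold is a limma p of 0.05 after Benjamini-Hochberg adjustment over all 22180 genes. Array medians lay between 4.27 and 4.33. Over all genes 10.4% were called higher and 10.4% lower in the knockout, and among genes brighter than the median gene these shares were 18.6% and 18.3%. Vwa8, the deleted gene, gave 8.91 to 9.01 in wild-type and 5.07 to 5.33 in knockout arrays, a difference of -3.77 ± 0.070 (SE; two-sided exact permutation test over the arrays, p = 0.0286, the smallest that 4 against 4 arrays allow). The defining hepatocyte markers were present, and all 8 measured ones were higher in the knockout, with Hnf4a at 0.45 ± 0.055 (SE) and Alb at 0.23 ± 0.048. Their mean level was 10.07 to 10.15 in wild-type and 10.81 to 10.94 in knockout arrays. Proliferation markers moved the other way: 6 of 7 fell, and their mean level went from 7.53 to 7.59 in wild-type arrays down to 5.94 to 6.21 in knockout arrays, with Mki67 at -2.66 ± 0.115. Of 5 biliary and progenitor markers 2 fell, Krt7 and Cftr. Krt19 stood at -0.18 ± 0.078 (limma adjusted p = 0.146), and Epcam, which was dim, at -0.04 ± 0.092. Sox9, the brightest of the 5, went the other way, at 0.11 ± 0.053 (limma adjusted p = 0.21). It did not pass the threshold, but every knockout array read above every wild-type array. Krt7, Cftr, Epcam and Sox9, and Cd14 below, were picked out only once the results were known. The mean level of the 5 was 6.43 to 6.60 in wild-type and 6.15 to 6.31 in knockout arrays. Of 7 macrophage and leukocyte markers 1, Cd14, fell (14.3%, near the share of all genes called lower), and the mean level was 4.48 to 4.58 against 4.43 to 4.61; the leukocyte marker Ptprc stood at -0.10 ± 0.142. None of 8 stellate and fibroblast or 6 endothelial markers passed in limma (1 and 0 of them at an unadjusted p under 0.05). Their mean levels were 3.89 to 4.05 against 3.80 to 4.01, and 3.52 to 3.72 against 3.65 to 3.79, with Col1a1 at -0.06 ± 0.075 and Pecam1 at -0.02 ± 0.118. All 6 endothelial markers, 7 of the 8 stellate markers and 5 of the 7 macrophage and leukocyte markers, Ptprc among them, were dimmer than the median gene. Every result below compares the same groups between which the hepatocyte markers and 6 of 7 proliferation markers differed. The part of these markers in the results was not tested. In RNA from whole cultures, fewer cells of a kind and less RNA per cell cannot be told apart.

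Of the 8 measured members, 5 rose and none fell in the knockout. Gnmt, Ahcy, Cbs, Cth and Shmt1 were each 2.04 to 2.53 times higher, and for each of the 5 every knockout array read above every wild-type array. For Ahcy this range holds on its brighter probe set only. Its other probe set rose by 0.86 log2 units, which is less than 2-fold. Mat1a, Bhmt and Bhmt2 did not pass the threshold and their groups overlapped. That is 62.5% called higher, against 10.4% of all genes and 18.6% of those brighter than the median gene. The members were chosen with earlier results of these data known, so these shares describe the set and are not a test of it. A rise of at least 2-fold was called in 0.987% of all genes, and all knockout arrays lay above all wild-type arrays in 12.9%. The median difference was 1.08 over the 8 members and -0.0027 over all genes. At an unadjusted p under 0.05 the limma counts of the members were also 5 higher and 0 lower.

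**Figure D1:**
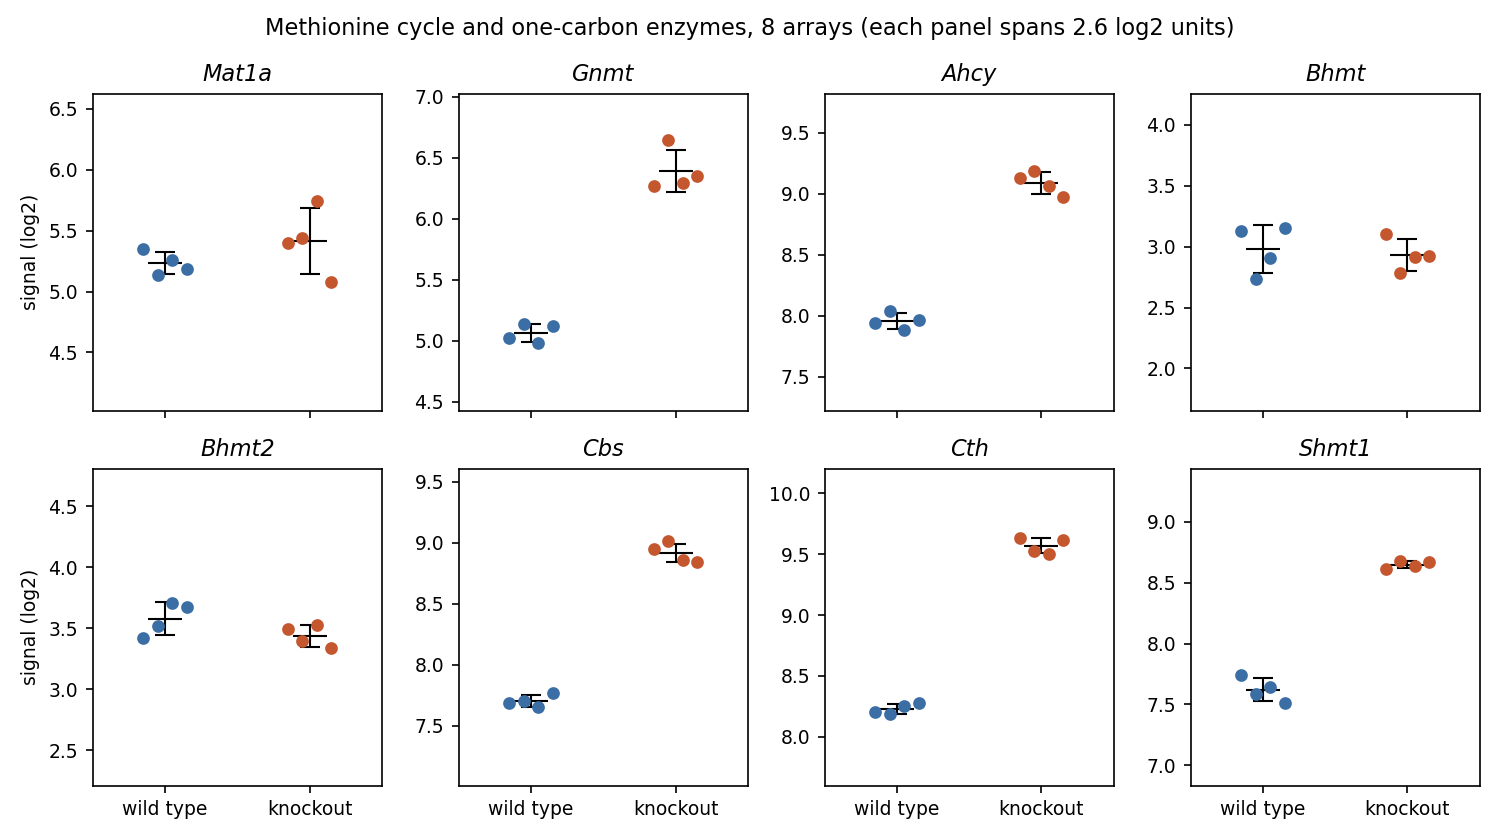
Log2 signal of the 8 measured members on each array (points; replicates 1 to 4 from left to right within a group), with the mean and SD of the 4 arrays as bars; every panel spans the same range of log2 units. Gnmt, Ahcy, Cbs, Cth and Shmt1 have no overlap between groups, while Mat1a, Bhmt and Bhmt2 overlap.

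Of the 5 members that rose together, 4 had an entry in the RefSeq promoter table of GRCm38.p6, and the 250 bases before the start given in that table are shown so that what they share in sequence can be seen. The RefSeq gene ranges of Gnmt and Cbs begin further upstream, so 46 and 28 bases of their windows lie inside the gene, whereas the Ahcy and Shmt1 windows lie wholly outside it. Capitals mark matches to 6 motifs searched on both strands: the CCAAT box CCAAT, the GC box GGGCGG, the TATA box TATAAA, the E box CACGTG, the core of the C/EBP-ATF element TGATGNAA and the HNF4A consensus CAAAGTCCA.
Gnmt (chr17:46729166-46729415, minus strand): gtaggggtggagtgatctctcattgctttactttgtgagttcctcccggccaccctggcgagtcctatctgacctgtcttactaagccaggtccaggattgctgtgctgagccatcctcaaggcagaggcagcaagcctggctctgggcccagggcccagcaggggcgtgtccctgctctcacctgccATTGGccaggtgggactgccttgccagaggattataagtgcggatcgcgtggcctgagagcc
Ahcy (chr2:155074498-155074747, minus strand): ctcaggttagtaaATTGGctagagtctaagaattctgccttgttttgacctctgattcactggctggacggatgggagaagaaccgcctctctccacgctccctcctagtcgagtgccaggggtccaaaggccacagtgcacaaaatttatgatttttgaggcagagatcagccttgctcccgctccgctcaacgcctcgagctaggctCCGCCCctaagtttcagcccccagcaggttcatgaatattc
Cbs (chr17:31637206-31637455, minus strand): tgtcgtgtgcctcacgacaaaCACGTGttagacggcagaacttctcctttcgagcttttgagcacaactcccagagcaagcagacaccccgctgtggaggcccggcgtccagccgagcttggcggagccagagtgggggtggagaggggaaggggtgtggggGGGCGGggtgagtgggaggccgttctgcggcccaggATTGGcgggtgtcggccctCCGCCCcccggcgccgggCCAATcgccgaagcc
Shmt1 (chr11:60811266-60811515, minus strand): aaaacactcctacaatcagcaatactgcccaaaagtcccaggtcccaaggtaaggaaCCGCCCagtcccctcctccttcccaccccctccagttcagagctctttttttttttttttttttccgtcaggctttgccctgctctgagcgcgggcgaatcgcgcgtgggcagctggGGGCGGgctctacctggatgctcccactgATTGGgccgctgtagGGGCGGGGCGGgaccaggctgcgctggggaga

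All 4 windows held a CCAAT box on one strand or the other, as did 34.5% of 27025 promoters of the same length. Counting the base before the table's start as -1, it lay at -62 to -58 in Gnmt, -237 to -233 in Ahcy and -47 to -43 in Shmt1, and Cbs had 2, at -52 to -48 and, inside the gene range, at -15 to -11. GC boxes, found in 32.9% of promoters, numbered 1 in Ahcy, 2 in Cbs, 4 in Shmt1 (the pair nearest the start shares 1 base) and 0 in Gnmt. An E box, found in 6.05% of promoters, stood at -229 to -224 in Cbs. The TATA box (13.0% of promoters), the C/EBP-ATF core (3.53%) and the HNF4A consensus (0.381%) had no match in these 4 windows. Among the members that did not rise, Bhmt had 1 CCAAT box and Bhmt2 none, with 2 GC boxes. These matches describe the letters of the windows only.

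Only Mat1a was read for the first step of the cycle, and it did not pass the threshold. Mat1a, the liver-type S-adenosylmethionine synthetase, read 5.35, 5.14, 5.26 and 5.19 in wild-type replicates 1 to 4 and 5.40, 5.44, 5.74 and 5.07 in knockout replicates 1 to 4. The knockout arrays held both the lowest and the highest of the 8 values. The difference was 0.18 ± 0.128 (SE; 95% interval -0.11 to 0.47; limma adjusted p = 0.405), so a rise of up to 1.39-fold lay inside the interval. Mat1a was a modest signal, brighter than 57.0% of genes. It lies on chromosome 14, as Vwa8 does, and with its neighbours' median subtracted it stood at 0.30 (limma adjusted p = 0.138).

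Glycine N-methyltransferase and S-adenosylhomocysteine hydrolase, which act next, both rose. Gnmt, which burns off surplus S-adenosylmethionine by methylating glycine, read 5.02, 5.14, 4.98 and 5.12 in the wild type and 6.27, 6.65, 6.30 and 6.35 in the knockout. The lowest knockout value stood more than 1 log2 unit above the highest wild-type value. Its difference was 1.33 ± 0.092, or 2.51-fold (95% interval 2.17 to 2.90; limma adjusted p = 1.82e-05).

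Ahcy hydrolyses S-adenosylhomocysteine, the product and inhibitor of methyltransferases, to homocysteine. It read 7.94, 8.04, 7.88 and 7.97 in the wild type and 9.13, 9.19, 9.06 and 8.97 in the knockout, again with a clear gap between the groups. The difference was 1.13 ± 0.067, or 2.19-fold (1.97 to 2.43; limma adjusted p = 7.11e-06). Ahcy was the only member with a second probe set naming it alone. That dimmer probe set, 17393207, read 4.92 to 5.55 in the wild type and 6.01 to 6.30 in the knockout, a difference of 0.86 ± 0.137 (limma adjusted p over probe sets = 0.00215). Both probe sets therefore rose, by different amounts. The brighter one, 17330769, sits in the array's numbering among genes of chromosome 16 (10 of the 10 nearest named probe sets), whereas Ahcy itself lies on chromosome 2, as do 10 of the 10 neighbours of the dimmer one. No source used here says which genomic copy the brighter probes were designed on.

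The betaine-dependent route back to methionine was dim in both genotypes. Bhmt, which methylates homocysteine with betaine, read 3.12, 2.74, 2.91 and 3.15 in the wild type and 3.10, 2.78, 2.92 and 2.92 in the knockout. Bhmt2, which uses S-methylmethionine as its methyl donor, read 3.42, 3.52, 3.71 and 3.67 against 3.50, 3.39, 3.53 and 3.34. Both genes lay below the median gene (4.57), Bhmt above only 18.7% and Bhmt2 above 30.1% of genes, and their groups overlapped. The differences were -0.05 ± 0.108 (95% interval -0.30 to 0.20; limma adjusted p = 0.818) and -0.14 ± 0.082 (-0.33 to 0.05; adjusted p = 0.297). The deposited values carry no detection call, so signal and background were not told apart at these levels.

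Both transsulfuration enzymes rose. Cbs, which joins homocysteine and serine to cystathionine, read 7.68, 7.70, 7.65 and 7.77 in the wild type and 8.95, 9.01, 8.86 and 8.84 in the knockout. Its difference was 1.22 ± 0.061, or 2.32-fold (2.11 to 2.56; limma adjusted p = 3.57e-06). Cth, which splits cystathionine to release cysteine, read 8.20, 8.19, 8.26 and 8.28 against 9.63, 9.53, 9.50 and 9.62. All knockout arrays lay above all wild-type arrays for both genes. The difference of Cth, 1.34 ± 0.057 or 2.53-fold (2.31 to 2.76), had the smallest limma adjusted p of the members, 1.52e-06.

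Shmt1, the cytosolic serine hydroxymethyltransferase that loads a one-carbon unit from serine onto folate, rose as well. It read 7.74, 7.58, 7.64 and 7.52 in the wild type and 8.61, 8.68, 8.64 and 8.67 in the knockout. The knockout values had an SD of 0.030 (n = 4), the lowest knockout SD among the 8 measured members. The difference was 1.03 ± 0.063, or 2.04-fold (1.84 to 2.25; limma adjusted p = 9.15e-06).

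**Figure D2:**
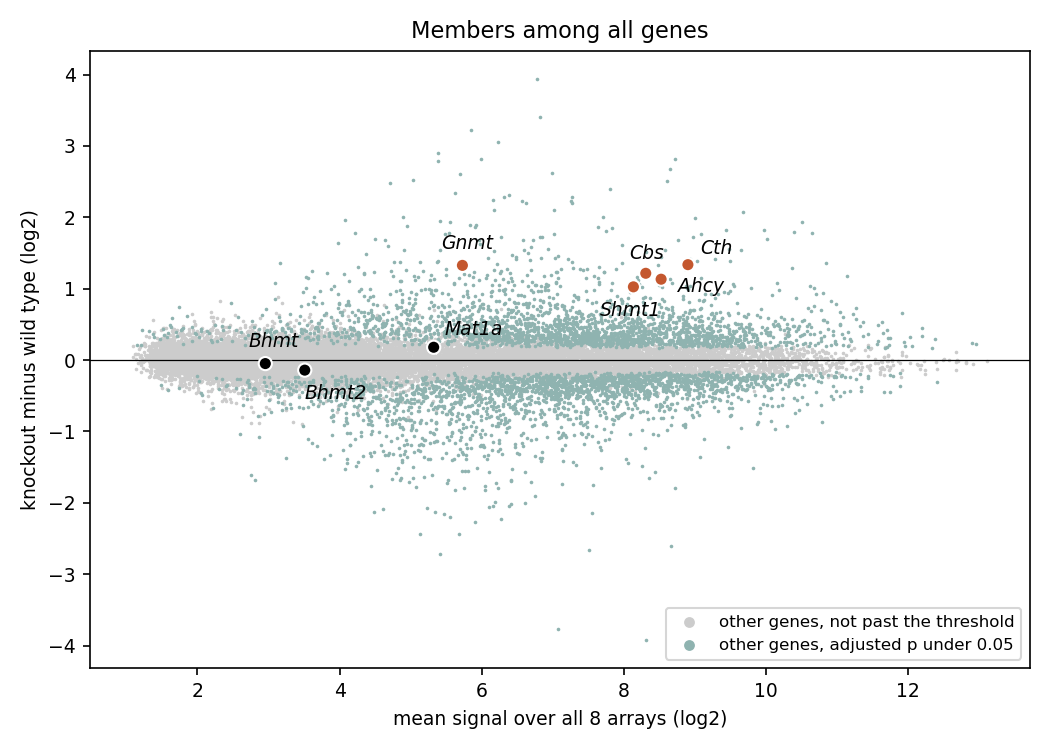
Difference between knockout and wild type (log2) against mean signal over 8 arrays for all 22180 genes, with the members drawn larger (orange, past the threshold; black, not). Ahcy, Cbs, Cth and Shmt1 lie among bright genes, Gnmt nearer the middle of the range, and Bhmt and Bhmt2 among dim ones.

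Ranked by size of rise among all 22180 genes, Cth stood at 103, Gnmt at 105, Cbs at 135, Ahcy at 165 and Shmt1 at 212. The genes whose 8 values were most like those of Cth, each centred on its own mean, were Slc3a1, Xkr9 and Pcsk6, with root mean square differences of 0.052, 0.053 and 0.060 log2 units over the 8 arrays. Slc3a1 encodes a subunit of the cystine and dibasic amino acid transporter. The differences of Slc3a1, Xkr9 and Pcsk6 were 1.39, 1.27 and 1.33, near the 1.34 of Cth. A match of this kind largely follows the size of the difference, and a shared regulation was not tested.

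Genes of some chromosomes were shifted as a group, and the members' neighbours are given for that reason. Among genes brighter than the median gene the median difference was 0.21 on chromosome 3, which carries Cth, 0.16 on chromosome 2, which carries Ahcy, 0.07 on chromosome 11 (Shmt1), -0.01 on chromosome 17 (Cbs and Gnmt), -0.04 on chromosome 13 (Bhmt and Bhmt2) and -0.13 on chromosome 14 (Mat1a and Vwa8). After subtraction of the median of up to 30 brighter genes on each side, Cth stood at 1.09, Ahcy at 0.97 and Shmt1 at 0.94. The neighbours of Ahcy were taken on chromosome 2, although the probe set read for it sits among chromosome 16 genes in the array's numbering. All 5 members that rose remained past the threshold.

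**Figure D3:**
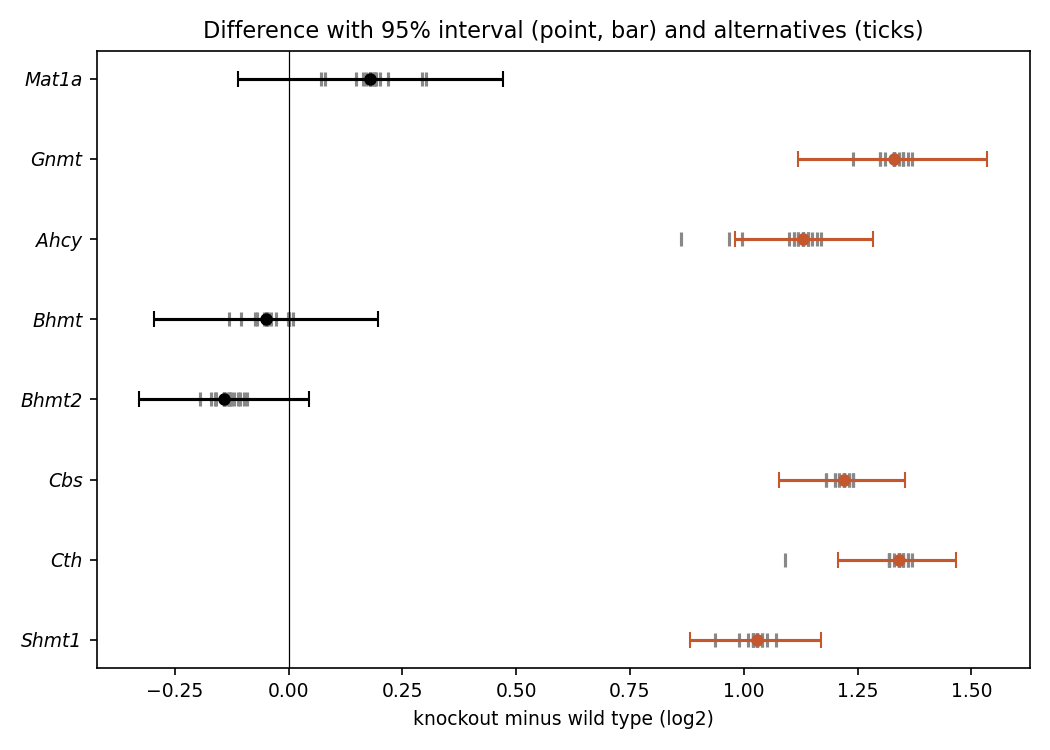
Difference of each member with its 95% interval (point and bar) and its value under each alternative treatment of the data (grey ticks), in log2 units. The 5 members that rose stay between 0.86 and 1.37; the lowest tick of Ahcy is its other probe set, and the lowest tick of Cth is the subtraction of neighbouring genes.

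Genes around the cycle were read from 7 further lists, of 65 measured genes in all, of which 29 rose (44.6%) and 8 fell (12.3%). All but 6 of the 65 were brighter than the median gene, where 18.6% of genes were called higher and 18.3% lower, so the share that fell was not above that background. Their median difference was 0.17. The lists, like the members, were chosen with earlier results of these data known. The shares given here and for each list below therefore describe the lists and are not a test of them. The 4 with the smallest p of each list are named, with every gene that moved against the majority of its list. Mthfd2, Tpmt and Azin1, which complete small counts, were added after their values were seen. Dld and Gss, whose calls did not hold under every alternative, were added in the same way. So were Mtr, Mat2b, Shmt2, Chdh, Dmgdh, Gamt, Nnmt, Srm, Gclc and Cdo1, which did not pass the threshold and are given for their roles.

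Genes of the rest of the methionine cycle and of the salvage of methionine from methylthioadenosine were called in both directions. Of 10 genes, all brighter than the median gene, 3 rose and 1 fell, with a median of -0.02. That is 30% higher and 10% lower, against 18.6% and 18.3% of such genes, so the share that fell was not above the background. Ahcyl1, an AHCY-like regulator of calcium channels, rose by 0.50 ± 0.055, Apip by 0.46 ± 0.062 and Adi1 by 0.40 ± 0.053, the latter both salvage enzymes. Subtraction of the neighbours' median left Ahcyl1 at 0.26 and Apip at 0.26, both still past the threshold. Enoph1, which acts between Apip and Adi1, fell by 0.44 and with its neighbours' median subtracted stood at -0.21 (limma adjusted p = 0.0551). Methionine synthase, Mtr, which remethylates homocysteine with folate, stood at -0.26 ± 0.092 (limma adjusted p = 0.0883; past the threshold under 4 of 19 alternatives, with adjusted p from 0.0242 to 0.287), and Mat2b, the regulatory partner of MAT2A, at -0.04 ± 0.067.

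Folate enzymes went both ways, 5 of 16 higher (31.2%) and 3 lower (18.8%), with a median of 0.12. All 16 were brighter than the median gene, and the share that fell was near the 18.3% of such genes called lower. Aldh1l1 and Aldh1l2, the cytosolic and mitochondrial enzymes that oxidise formyl-folate, rose by 0.70 ± 0.075 and 0.81 ± 0.088. The folate transporter Slc46a1 rose by 0.55 ± 0.067, the hydrolase Ggh by 0.50 ± 0.058, and the mitochondrial dehydrogenase Mthfd2 by 0.49 ± 0.10. Its relative Mthfd2l fell by 0.38, and stood at -0.23 with its neighbours' median subtracted. Mthfd1l and Ftcd fell by 0.24 and 0.21, and after subtraction of their neighbours' median they no longer passed, at -0.06 and -0.09 (limma adjusted p = 0.571 and 0.299). Both calls also ended with the replicate block (adjusted p = 0.0556 and 0.0816) and when single arrays were left out. For Mthfd1l these were wild-type replicates 1, 2 and 4 and knockout replicates 1 and 3 (-0.25 to -0.20, adjusted p = 0.0521 to 0.0854), and for Ftcd wild-type replicates 2 and 4 and knockout replicates 3 and 4 (-0.21 to -0.19, adjusted p = 0.0546 to 0.0627). Shmt2, the mitochondrial counterpart of Shmt1, stood at -0.19 ± 0.077 (limma adjusted p = 0.123; past the threshold under 2 of 19 alternatives, with adjusted p from 0.0308 to 0.549), reading 8.34 to 8.58 in the wild type and 8.13 to 8.37 in the knockout.

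Genes of choline, sarcosine and glycine metabolism had a median of 0.26. Of the 11, 6 rose and none fell (7 higher and 2 lower at an unadjusted limma p under 0.05). That is 54.5% higher, against 10.4% of all genes and 18.6% of those brighter than the median gene. The call of Dld, 0.21 ± 0.060 (limma adjusted p = 0.0377), was not stable. It ended under 10 of 19 alternatives, with adjusted p up to 0.165. Sardh, which demethylates the sarcosine that GNMT makes, read 6.22 to 6.36 in the wild type and 7.17 to 7.39 in the knockout, a rise of 0.97 ± 0.075. The mean of its probe sets rose by 0.46, so the brightest probe set of Sardh rose more than its others did on average. Pipox, a peroxisomal sarcosine oxidase, rose by 0.94 ± 0.055, and Aldh7a1, which oxidises betaine aldehyde, by 1.15 ± 0.061. The choline dehydrogenase Chdh and the dimethylglycine dehydrogenase Dmgdh, both dim, did not pass the threshold. Chdh stood at -0.26 ± 0.0833 (limma adjusted p = 0.0579, past the threshold under 3 of 18 alternatives) and Dmgdh at 0.12 ± 0.0835 (limma adjusted p = 0.39). Gldc, the decarboxylase of the glycine cleavage system, was among the brightest of these genes, at a wild-type mean of 11.34, and rose by 0.49 ± 0.059.

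Serine, the one-carbon source of SHMT1 and co-substrate of CBS, is made from a glycolytic intermediate by PHGDH, PSAT1 and PSPH. Of 4 measured genes 3 rose and none fell (4 and 0 at an unadjusted limma p under 0.05). That is 75% higher, against 18.6% of genes brighter than the median gene. Phgdh rose by 0.79 ± 0.112 and Psat1 by 0.59 ± 0.057, while Psph stood at 0.27 ± 0.085 (limma adjusted p = 0.0567). Psph passed the threshold under 6 of 19 alternatives (adjusted p from 0.00715 to 0.137), and stood at 0.43 with its neighbours' median subtracted. Srr, the serine racemase, rose by 0.62 ± 0.059.

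Of 7 methyltransferases that use S-adenosylmethionine on small molecules, 5 rose and none fell (also 5 and 0 at an unadjusted limma p under 0.05), with a median of 0.85. That is 71.4% higher, against 10.4% of all genes and 18.6% of those brighter than the median gene. Pemt, which makes phosphatidylcholine by methylation and is a large consumer of methyl groups in liver, read 6.18, 6.34, 6.02 and 6.03 in the wild type, and its lowest knockout array read 7.75 (mean 7.90 ± 0.121, SD, n = 4). Its rise was 1.76 ± 0.093, or 3.39-fold (limma adjusted p = 4.46e-06). Hnmt, which methylates histamine, rose by 1.69 ± 0.136, Inmt, an amine methyltransferase, by 1.42 ± 0.074, the arsenic methyltransferase As3mt by 0.85 ± 0.082 and the thiopurine methyltransferase Tpmt by 0.60 ± 0.066. Gamt, the last enzyme of creatine synthesis, stood at 0.005 ± 0.063 and Nnmt, which was dim, at 0.02 ± 0.138.

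Polyamine genes were the only one of the 7 lists with more falls than rises, 4 against 1 of 7 genes, with a median of -0.21. That is 57.1% lower, against 18.3% of genes brighter than the median gene. Odc1, the entry enzyme, fell by 0.45, the antizyme Oaz2 by 0.50, the acetyltransferase Sat1 by 0.43 and the antizyme inhibitor Azin1 by 0.21. Azin1 no longer passed with its neighbours' median subtracted (-0.13, limma adjusted p = 0.168), with the replicate block (adjusted p = 0.103), or without any 1 of wild-type replicates 2 to 4 or knockout replicates 1 to 4 (-0.22 to -0.19, adjusted p = 0.0617 to 0.0954). Smox, the spermine oxidase, rose by 0.59 ± 0.084. Srm, which draws on decarboxylated S-adenosylmethionine, stood at 0.05 ± 0.061 (limma adjusted p = 0.674).

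Downstream of cysteine 6 of 10 genes rose and none fell (6 and 1 at an unadjusted limma p under 0.05), with a median of 0.37. That is 60% higher, against 10.4% of all genes and 18.6% of those brighter than the median gene. Csad, the decarboxylase of taurine synthesis, rose by 0.66 ± 0.108, the sulfide oxidase Sqor by 0.51 ± 0.066, and the sulfurtransferase Tst by 0.49 ± 0.080. Gclm, the modifier subunit of the enzyme that starts glutathione synthesis, rose by 0.44 ± 0.052, while its catalytic partner Gclc stood at -0.01 ± 0.050. Gclm and Sqor stood at 0.18 and 0.34 with their neighbours' median subtracted, both still past the threshold. The glutathione synthetase Gss rose by 0.35 ± 0.065. With its neighbours' median subtracted Gss stood at 0.19 and no longer passed (limma adjusted p = 0.0691). Cdo1, the cysteine dioxygenase, was dim and stood at -0.12 ± 0.144.

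**Figure D4:**
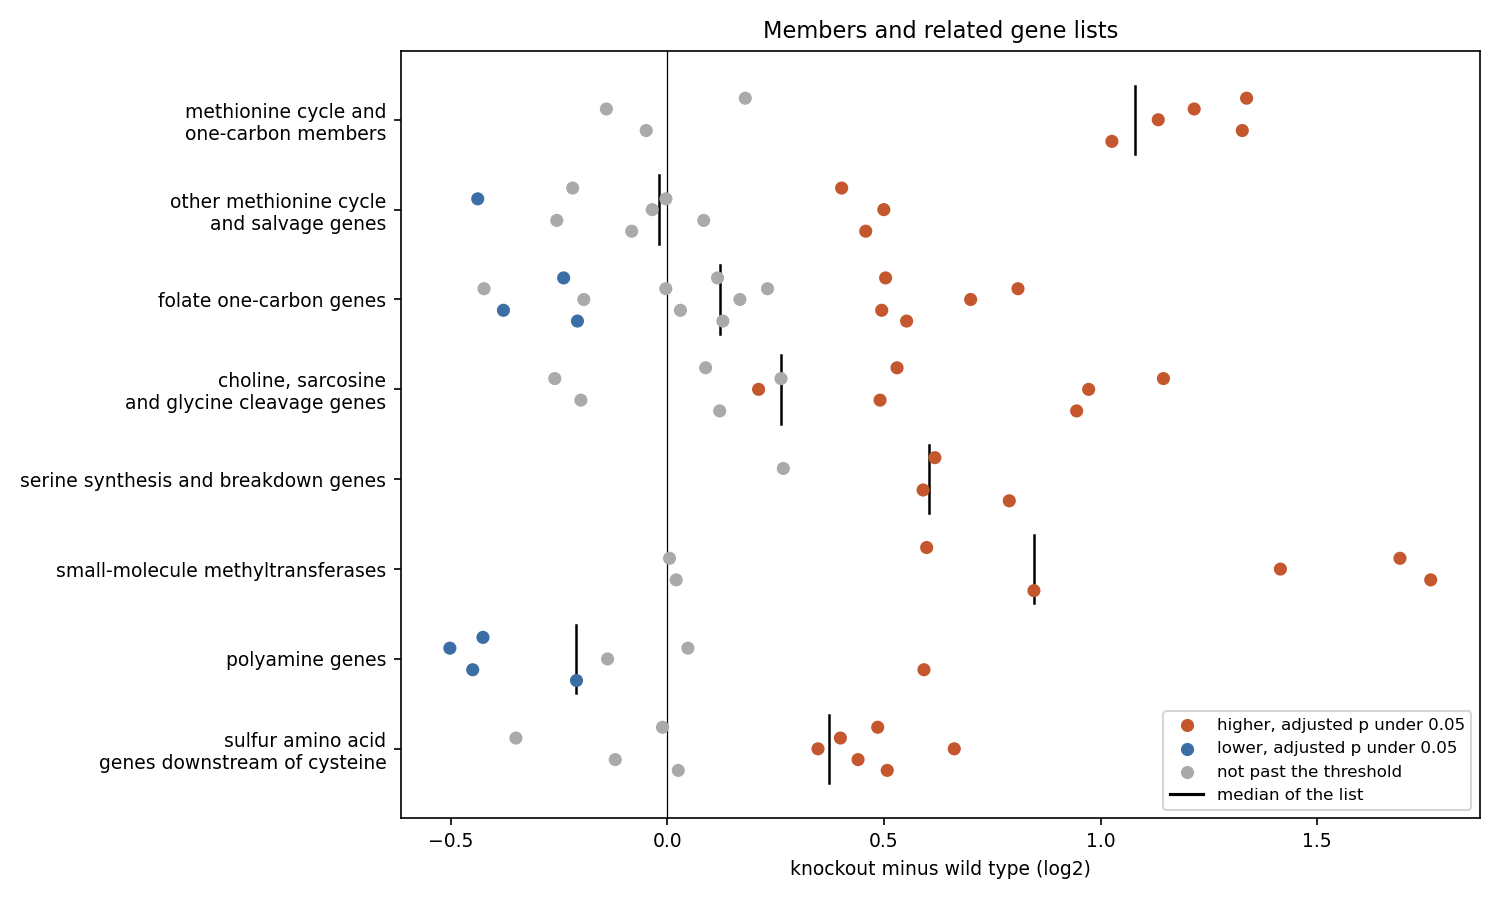
Difference between knockout and wild type (log2) of the members and of the genes in the 7 related lists, 1 point per gene, coloured by the limma call, with the list median as a black line. The members' median lies at 1.08, and polyamine genes have 4 of their 5 called genes below 0.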

How the data were processed

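Total RNA of 8 AML12 cultures was labelled with biotin and hybridised to Affymetrix mouse arrays, per the labels' protocols. The deposited values are log2 signals, 1 per probe set and array, a scale read from the values themselves (0.437 to 13.55); no source used here gives the background correction, normalization or summarisation. Nothing marks probe sets as undetected, and the 4 arrays per group limit the precision.

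Genes came from the platform annotation. The 23521 probe sets with 1 symbol named 22180 genes, and the brightest probe set stood for each. Chromosomes came from a RefSeq table of GRCm38.p6. Genotypes were compared in limma 3.58.1 (R 4.3.3) over all 22180 genes, genotype being the only term, with two-sided p-values and Benjamini-Hochberg adjustment; the fit was tested on simulated data. Where nothing says that cultures were independent, p-values measure the spread between these samples. Motifs and figures used Python 3.11.15 and matplotlib 3.10.9.

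Members and lists were chosen with earlier results of these data known. The rule for named genes takes all members, Vwa8, 7 cell markers, the 4 smallest p of each related list, genes that moved against their list, and the 3 profiles nearest to the member with the smallest p. Genes named outside it are declared in the text. Alternatives were a replicate block, quantile and median normalization, an intensity trend, array weights, filters on dim probe sets, averaging the probe sets of each gene, subtraction of neighbouring genes and leaving out arrays. Leaving out replicate 3 of both groups together, and reading Ahcy from its other probe set, were added after seeing the data.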

Additional observations from a re-analysis of the deposited data

Results flagged for a closer look

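None of the members had an array far from the others of its group. In the 65 related genes 7 groups of 4 arrays did, by a gap to the nearest array beyond Dixon's 95% limit, out of 148 groups looked at with the members and Vwa8, and chance gives about 1 in 20. Wild-type replicate 4 was low for Aldh7a1 (6.95, the others from 7.09), replicate 3 high for Gatm (3.01, next 2.87), and replicate 1 low for Mtr (7.28, next 7.50) and high for Pipox (9.08, next 8.98). Knockout replicate 3 was high for Mat2b (7.99, next 7.80) and Psat1 (10.35, next 10.32), and replicate 2 low for Srr (8.80, next 8.86).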

How the results depend on the processing

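Under each of the 19 alternatives 5 members were higher and 0 lower, and the number of genes called over all ran from 3374 to 5573. Gnmt stayed between 1.24 and 1.37, Ahcy between 0.86 and 1.17, Cbs between 1.18 and 1.24, Cth between 1.09 and 1.37 and Shmt1 between 0.94 and 1.07, with limma adjusted p no higher than 0.00201. Same-numbered arrays had deviations from their group means that correlated by only -0.0015 to 0.059, so the numbers were not taken to pair them, although both groups had replicates 3, 1, 2 and 4 in the same order on the second principal component (17.2 to -18.1 in the wild type, 9.67 to -10.3 in the knockout). With the replicate block 5 members passed, and 34 in place of 37 related genes; the cause was not tested. Mat1a ran from 0.07 to 0.30 and Bhmt2 from -0.20 to -0.09, neither past the threshold. Bhmt ranged from -0.13 to 0.0089 when single arrays were left out, and changed sign around 0, to 0.0012 with neighbouring genes subtracted, 0.0089 without wild-type replicate 4 and 0.0003 without knockout replicate 2. Bhmt and Bhmt2 drop out of the stricter filters on dim probe sets. Of the 37 related genes called, 37 kept their direction and 31 also their call. Related genes called lower, 8 as reported, numbered 14 with the intensity trend, 13 without the dimmest 50% of probe sets, 4 with neighbouring genes subtracted, and 5 without wild-type replicate 2 or without knockout replicate 3. Signal over background limits Bhmt, Bhmt2 and the other dim genes.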
